A study of Macaca mulatta with 30 samples.

Results

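Transforming growth factor beta (TGF-beta) genes were followed in the lung and hippocampus of fetal rhesus macaques after maternal treatment with betamethasone. The 9 genes were chosen by symbol, as ligands (TGFB1, TGFB2, TGFB3), the latent binding protein LTBP1, receptors (TGFBR1, TGFBR2, TGFBR3), the signal mediator SMAD3 and the inhibitor SMAD7. Of these 9 genes, 8 had a row in both count tables and all 8 passed the read minimum, so that 8 of 17644 genes tested in lung and 8 of 17390 in hippocampus are described. SMAD7 was not matched to a row and was not analysed here.

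The lung libraries came from wild-type fetuses whose age is labelled as 124 to 130 days of gestation, with 3 fetuses in each of 5 groups. Mothers received saline (control), the clinical drug Celestone at 0.25 mg/kg, an equal mixture of betamethasone-phosphate and betamethasone-acetate, or betamethasone-acetate alone (Beta-Ac) at 0.125 mg/kg, all by intramuscular injection. Lung was taken at 4 h or 5 days for the clinical drug and at 6 h or 5 days for Beta-Ac. The 3 control lungs carry no time in the lung labels, and their fetuses are labelled 5 days in the hippocampus labels. No control lung is thus labelled as taken at 4 h or 6 h. The hippocampus libraries came from 3 groups of 5 fetuses aged 130 to 136 days, all labelled as delivered 5 days after treatment, and 9 fetuses gave a library of both tissues. The labels disagree on the age of these 9 fetuses, which stand at 131 to 136 days in the hippocampus labels and within 124 to 130 days in the lung labels. Hippocampus groups were taken from the letters that open each library title (CTL, BAC and CEL). The treatment and dose fields give the BAC libraries the acetate and phosphate mixture at 0.25 mg/kg and the CEL libraries acetate alone at 0.125 mg/kg. The lung labels give the opposite drug for the treated fetuses that the tissues share. The title letters match these lung labels, with CEL as in Celestone and BAC as in Beta-Ac. The treatment and dose fields thus conflict with both, and the labels alone do not settle the drug behind BAC and CEL. Each library was 1 fetus, and whole tissue was used, in which fewer cells of a type and less RNA per cell cannot be told apart.

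TGF-beta ligands are secreted in a latent complex, in which latent binding proteins such as LTBP1 tie the ligand to the extracellular matrix until integrins, thrombospondin or proteases release it. Free ligand is presented by TGFBR3 (betaglycan) and binds TGFBR2, which activates the kinase TGFBR1. TGFBR1 phosphorylates SMAD2 and SMAD3, which enter the nucleus with SMAD4, and SMAD7 opposes this step. The pathway is known for controlling branching, mesenchymal differentiation and matrix deposition in the developing lung, and glial and vascular development in the brain.

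Reads on genes totalled 14.1 to 45 M in lung libraries and 18.3 to 29.3 M in hippocampus libraries. Levels are TMM-normalized counts per 1 M reads (CPM), calculated separately in each tissue, and are not corrected for gene length. The least-covered member in lung was TGFBR1, with 133 to 686 reads in a library, and in hippocampus SMAD3, with 84 to 265 reads. A gene was called differentially expressed by edgeR's quasi-likelihood test when it changed by 1.5-fold or more, its p was below 0.05 and its adjusted p (Storey q in lung, Benjamini-Hochberg in hippocampus) was below 0.1. Of 6 glucocorticoid-induced genes listed as a check of exposure, 3 (FKBP5, PER1 and ZBTB16) were measured. All 3 were induced in both early lung groups, and none was called at 5 days in either tissue.

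In the fetal lung, SMAD3 and TGFB3 were lower 4 h after the clinical drug than in controls, while the ligands TGFB1 and TGFB2, the binding protein LTBP1 and the 3 receptors were not differentially expressed. SMAD3 carries the signal from the activated receptor to the nucleus, and TGFB3 is 1 of the 3 secreted ligands. The 2 of 8 members called (25%, both lower) stand beside 7.4% of all genes tested in this comparison. The median log2 fold change over the 8 members was 0, against 0.019 over all genes.

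SMAD3 measured 76.4, 77.6 and 82.7 CPM in the 3 control lungs. At 4 h after the clinical drug it measured 54.9, 36.6 and 44.8 CPM, each below every control. At 6 h after Beta-Ac it measured 88.3, 75.1 and 70.4 CPM, spanning the control range. By 5 days the levels were 97.1, 96.8 and 83.9 CPM after the clinical drug, each above every control. After Beta-Ac they were 86.9, 79.4 and 83.7 CPM at 5 days and overlapped the controls. The lungs taken 4 h after the clinical drug were therefore the lowest of the 15, and the next lowest library was at 70.4 CPM.

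SMAD3 fell by 42.2% from control in the lungs taken early after the clinical drug (4 h, log2 fold change -0.79, SE 0.13, 95% interval -1.07 to -0.51, Storey q = 0.00156). At 6 h after Beta-Ac the log2 fold change was -0.02 (95% interval -0.29 to 0.26, Storey q = 0.736). The difference between these treated groups was itself tested, and SMAD3 was lower at 4 h after the clinical drug than at 6 h after Beta-Ac (log2 fold change -0.77, SE 0.13, Storey q = 0.00452). Drug, dose and time differ together between these groups and cannot be told apart. By the paper's table of animals the 4 h fetuses were all male and the 6 h fetuses were of both sexes. Both treated groups were compared with the same 3 controls, which are not labelled as taken at 4 h or 6 h. In order of group mean, SMAD3 ran from 45.4 ± 9.18 CPM (SD, n = 3) in lungs taken 4 h after the clinical drug to 77.9 ± 9.31 at 6 h after Beta-Ac, 78.9 ± 3.35 in controls, 83.3 ± 3.74 at 5 days after Beta-Ac and 92.6 ± 7.54 at 5 days after the clinical drug. Of these neighbours only the first pair did not overlap. The log2 fold change at 5 days after the clinical drug was 0.23 (95% interval -0.04 to 0.51, Storey q = 0.931) and was not called. The call for SMAD3 against controls held in all 13 alternative settings, with Storey or Benjamini-Hochberg adjusted p of at most 0.0221.

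TGFB3 measured 42.7, 31.3 and 35.7 CPM in controls and 21.7, 27.7 and 20.9 CPM at 4 h after the clinical drug. The highest treated library lay below the lowest control. At 6 h after Beta-Ac the levels were 32.1, 34.1 and 21.8 CPM, so that 1 of 3 libraries lay within the range seen 4 h after the clinical drug. The 5-day levels were 30.8, 41.4 and 36.9 CPM after the clinical drug and 30.8, 32.4 and 33.2 CPM after Beta-Ac. All 6 lungs at 5 days thus lay above every lung taken 4 h after the clinical drug, and their range overlapped the controls.

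TGFB3 fell by 36.1% in the same lungs (log2 fold change -0.65, SE 0.18, 95% interval -1.02 to -0.27, Storey q = 0.0307). It rested in part on 1 control, since without control replicate 1 the log2 fold change was -0.54 and the Storey q 0.122. At 6 h after Beta-Ac the log2 fold change was -0.32 (95% interval -0.69 to 0.06, Storey q = 0.382) and was not called. The direct comparison of the early groups gave -0.33 (95% interval -0.70 to 0.05, Storey q = 0.19), so a difference between them was not shown. Group means ordered from 23.4 ± 3.71 CPM (SD, n = 3) in lungs taken 4 h after the clinical drug, through 29.3 ± 6.59 at 6 h after Beta-Ac, 32.1 ± 1.22 at 5 days after Beta-Ac and 36.4 ± 5.31 at 5 days after the clinical drug, to 36.5 ± 5.73 in controls. Every pair of neighbours in this order overlapped.

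**Figure D1:**
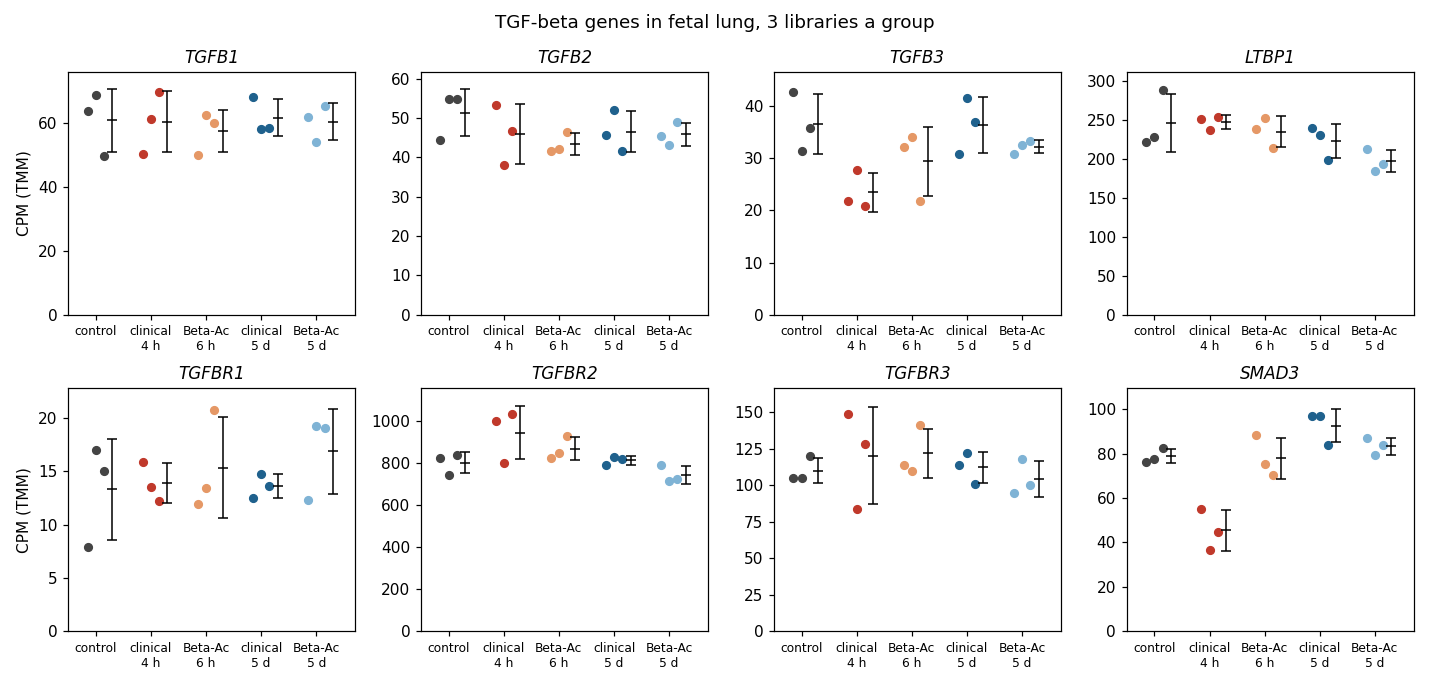
Levels of the 8 measured TGF-beta genes in fetal lung in CPM after TMM normalization (vertical axes, starting at 0), by group (horizontal axes). Points are single libraries (n = 3 a group) and the black bars give mean and SD. The red points for SMAD3 at 4 h after the clinical drug, at 36.6 to 54.9 CPM, lie below every other library, and those for TGFB3 lie below every control.

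Neither of the other ligands followed TGFB3. TGFB1, the most widely expressed ligand, measured 63.6, 68.7 and 49.7 CPM in controls and 50.3, 61.2 and 69.4 CPM at 4 h after the clinical drug, with nearly the same range in both. Over all 15 lungs it varied only from 49.7 to 69.4 CPM, a span of 1.39-fold. Its log2 fold change against control ranged from -0.08 at 6 h after Beta-Ac to 0.02 at 5 days after the clinical drug. TGFB2 measured 44.5, 54.7 and 54.8 CPM in controls, 53.3, 38.0 and 46.6 CPM at 4 h after the clinical drug and 41.5, 42.1 and 46.5 CPM at 6 h after Beta-Ac. The treated libraries overlapped the controls, and the log2 fold changes of TGFB2 were -0.16 (Storey q = 0.401) and -0.24 (Storey q = 0.372). At 5 days TGFB2 lay between 41.7 and 52.0 CPM in all 6 treated lungs.

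LTBP1, which holds latent ligand in the matrix, measured 222, 228 and 289 CPM in controls and 251, 237 and 254 CPM at 4 h after the clinical drug, without a difference (log2 fold change 0.01, 95% interval -0.23 to 0.25). Beta-Ac gave 238, 253 and 214 CPM at 6 h. The 5-day levels were 240, 231 and 199 CPM after the clinical drug and 213, 185 and 194 CPM after Beta-Ac. All 3 Beta-Ac lungs at 5 days lay below all 3 controls, but the difference did not reach the thresholds (log2 fold change -0.32, 95% interval -0.56 to -0.08, Storey q = 0.676).

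Of the receptors, TGFBR2, which binds the ligand first, measured 822, 743 and 835 CPM in controls and 1001, 798 and 1033 CPM at 4 h after the clinical drug. In 2 of 3 treated lungs the level exceeded every control, and the third lay among them. The log2 fold change of 0.24 (95% interval 0.02 to 0.45, Storey q = 0.143) was below the fold threshold and was not called. At 6 h after Beta-Ac TGFBR2 was 823, 848 and 928 CPM, and at 5 days it was 788, 826 and 820 CPM after the clinical drug and 789, 713 and 722 CPM after Beta-Ac. Against control its log2 fold change was 0.11 at 6 h after Beta-Ac, 0.02 at 5 days after the clinical drug and -0.11 at 5 days after Beta-Ac.

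TGFBR1, the signaling kinase, had the widest relative spread among controls, at 7.91, 17.0 and 15.0 CPM. It measured 15.9, 13.5 and 12.2 CPM at 4 h after the clinical drug and 11.9, 13.4 and 20.8 CPM at 6 h after Beta-Ac. Its log2 fold change at 4 h was 0.06, and the 95% interval of -0.52 to 0.65 was the widest of the 8 members in this comparison. TGFBR3, the ligand-presenting receptor, measured 105, 105 and 120 CPM in controls. At 4 h after the clinical drug it was 149, 83.8 and 128 CPM, with libraries on both sides of the control range. Levels of TGFBR3 were 114, 110 and 141 CPM at 6 h after Beta-Ac. The log2 fold changes of TGFBR3 were 0.13 (95% interval -0.23 to 0.50) and 0.15 (95% interval -0.22 to 0.51).

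For Beta-Ac at 6 h, 0 of 8 members were called against control, where 0.442% of all genes tested passed, and 0 of 8 had an unadjusted p under 0.05. Over all 17644 genes tested, 2021 had an unadjusted p under 0.05. At 5 days 0 of 8 members were called for the clinical drug, where 0% of all genes passed, or for Beta-Ac, where 0.00567% passed. At an unadjusted p under 0.05 LTBP1 was the only member after Beta-Ac, and there were 0 after the clinical drug. Over all genes there were 1133 after Beta-Ac and 775 after the clinical drug. DESeq2 also called 0 of 8 members in these comparisons. The direct comparison of the drugs at 5 days called 0 of 8 members beside 0% of all genes (0 by DESeq2 and 0 at an unadjusted p under 0.05), and the member log2 differences lay between -0.31 and 0.18. Over all genes 556 were under 0.05 in that comparison. At the early times the direct comparison called 1 of 8 members, SMAD3, beside 6.74% of all genes.

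The early and 5-day lungs were also compared within each drug. For the clinical drug 2 of 8 members were lower at 4 h than at 5 days, beside 10.4% of all genes. For SMAD3 the difference was -50.8% of the 5-day level (log2 fold change -1.02, SE 0.13, 95% interval -1.30 to -0.74, Storey q = 0.000191) and for TGFB3 -35.9% (log2 fold change -0.64, SE 0.17, 95% interval -1.01 to -0.27, Storey q = 0.0219). The call for TGFB3 was lost without clinical drug 4 h replicate 3 (log2 fold change -0.58, Storey q = 0.0742, below the fold threshold) and without clinical drug 5 days replicate 2 (-0.54, Storey q = 0.099). The call for SMAD3 held in all 13 alternatives. For Beta-Ac 0 of 8 members differed between 6 h and 5 days, beside 0.261% of all genes, and SMAD3 had a log2 difference of -0.10 (95% interval -0.37 to 0.18). LTBP1 and TGFBR2 had log2 differences of 0.25 and 0.22 between 6 h and 5 days after Beta-Ac. Both had an unadjusted edgeR p under 0.05, as had 1396 of all 17644 genes tested. Neither was called by edgeR (Storey q = 0.533 for both), and DESeq2 called 0 of 8.

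**Figure D2:**
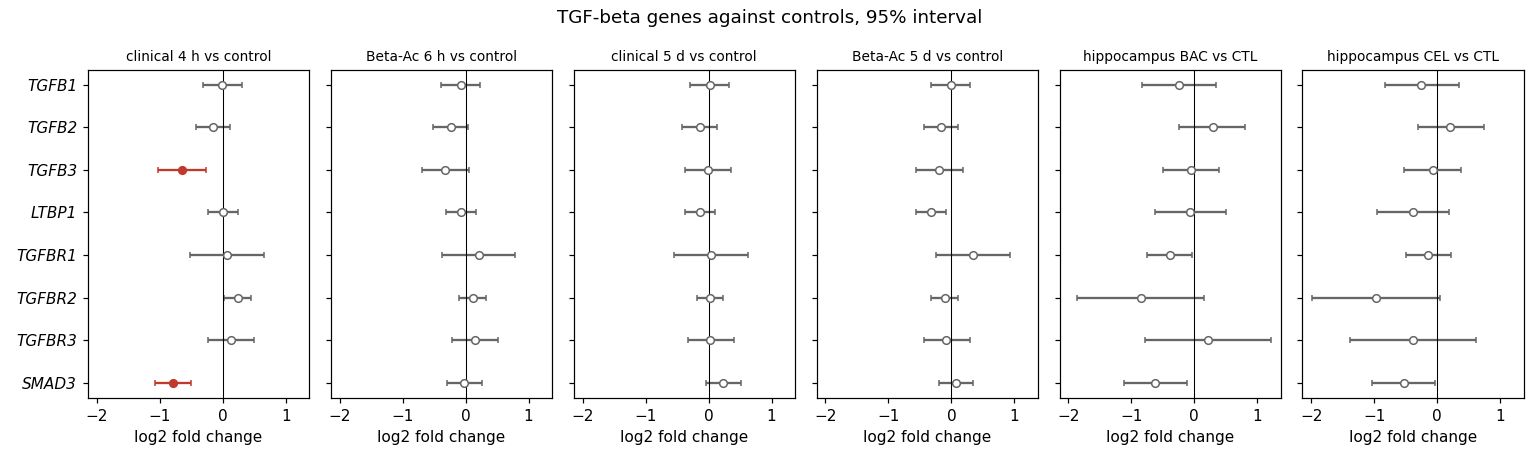
Log2 fold changes against controls (horizontal axes) of the 8 measured TGF-beta genes (rows) in 4 lung and 2 hippocampus comparisons. Bars are 95% intervals from the edgeR fit, and filled red points mark calls. SMAD3 at -0.79 and TGFB3 at -0.65, both at 4 h after the clinical drug, are the calls.

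The genes whose levels followed SMAD3 most closely over the 15 lungs were SH2B3, KIRREL1 and PPP1R9B, with mean absolute differences from SMAD3 of 0.094, 0.107 and 0.111 on the centred log2 CPM scale. The median over all genes was 0.370. SH2B3 is an adaptor that restrains cytokine receptor signaling, KIRREL1 is an adhesion molecule and PPP1R9B a scaffold of protein phosphatase 1. All 3 were called lower at 4 h after the clinical drug, by log2 fold changes of -0.80, -0.66 and -0.73. Closest to TGFB3 were MTAP, LBH and C2H3orf18, at 0.118, 0.129 and 0.133, where the median over all genes was 0.329. MTAP salvages methionine from polyamine synthesis and LBH is a transcriptional cofactor. At 4 h LBH and C2H3orf18 were called lower (-0.78 and -0.73), while MTAP was not called (-0.44). These libraries share the treatment groups, so likeness of level is a description only.

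The rest of the pathway was examined through 55 other genes in 5 lists, of which 50 were tested in lung. At 4 h after the clinical drug 3 of 50 were higher and 3 lower than in controls (12% called, beside the 7.4% of all genes), with a median log2 fold change of -0.06. Among 11 genes of latency and activation, THBS1 was higher and LRRC32 and NRROS were lower. Among 9 receptor regulators ENG was higher, and among 18 targets IGFBP3 was higher and SPHK1 lower. Among 8 SMADs and nuclear partners and 4 matrix binders none was called.

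THBS1, thrombospondin 1, a matrix protein that releases active ligand from the latent complex, rose from 84.1 to 97.3 CPM in controls to 170 to 255 CPM in lungs of the clinical drug at 4 h (log2 fold change 1.21, SE 0.22, Storey q = 0.0027). It was also higher at 6 h after Beta-Ac, at 142 to 284 CPM (log2 fold change 1.15, SE 0.22, Storey q = 0.0475), the 1 of 50 pathway genes called there (2%, beside 0.442% of all genes). That Beta-Ac call was lost without any 1 of the controls, without Beta-Ac 6 h replicate 3, or with only those groups fitted, where the log2 fold change ranged down to 0.82. LRRC32 and NRROS encode proteins that anchor latent TGF-beta on the cell surface. NRROS fell from 67.8 to 92.6 CPM in controls to 34.8 to 50.1 CPM (log2 fold change -0.94, SE 0.18, Storey q = 0.00465). LRRC32 measured 47.9 to 83.2 CPM in controls and 24.4 to 48.8 CPM at 4 h (log2 fold change -0.99, SE 0.29, Storey q = 0.0425), and its groups overlapped. Its call was lost when clinical drug 4 h replicate 1 or 2 or control replicate 2 or 3 was left out, with adjusted p up to 0.15.

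ENG, endoglin, a co-receptor of endothelial cells, rose from 287 to 314 CPM in controls to 444 to 557 CPM with the clinical drug at 4 h (log2 fold change 0.71, SE 0.13, Storey q = 0.00362). IGFBP3, a carrier of insulin-like growth factors, rose from 32.0 to 44.9 CPM to 95.7 to 165 CPM (log2 fold change 1.80, SE 0.31, Storey q = 0.00206). SPHK1, the kinase that makes sphingosine 1-phosphate, fell from 40.8 to 43.8 CPM to 12.1 to 21.3 CPM (log2 fold change -1.38, SE 0.21, Storey q = 0.00084). The called targets of the pathway thus moved both ways at the time SMAD3 and TGFB3 were low. These 3 genes were not called at 6 h after Beta-Ac, with log2 fold changes of 0.22 for ENG, 0.51 for IGFBP3 and -0.16 for SPHK1.

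**Figure D3:**
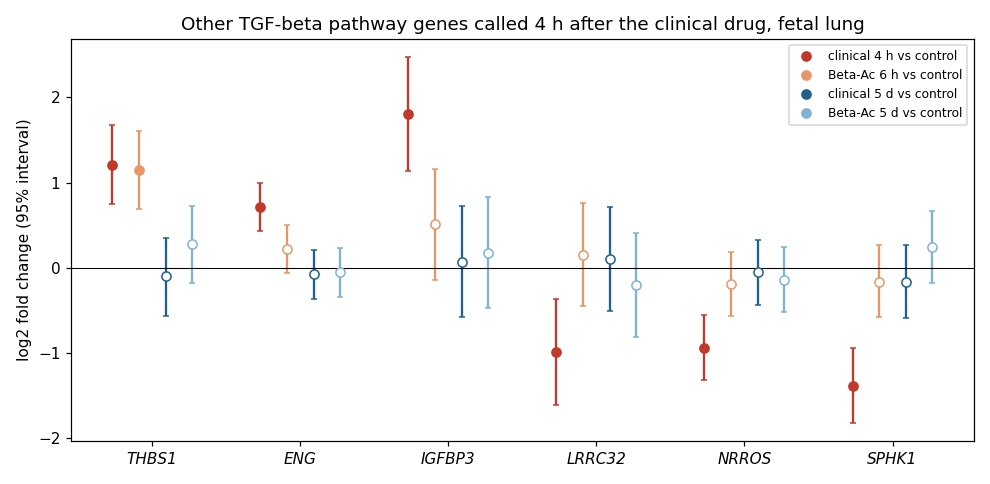
Log2 fold changes against control (vertical axis, bars give 95% intervals) of the 6 other pathway genes called at 4 h after the clinical drug, in the 4 lung treatment groups marked by color. Filled points are calls and open points are not. The clinical drug at 4 h (red) ranges from -1.38 for SPHK1 to 1.80 for IGFBP3, and both 5-day groups have open points for all 6 genes.

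In the direct comparison of the early groups, 5 of 50 other pathway genes differed (10%, beside the 6.74% of all genes). IGFBP3 was higher after the clinical drug (log2 difference 1.30), and SPHK1 (-1.23), LRRC32 (-1.14), ID1 (-0.85) and NRROS (-0.74) were lower. ID1, an inhibitor of differentiation that responds to TGF-beta superfamily ligands, was at 147 to 185 CPM at 4 h after the clinical drug, 227 to 419 CPM at 6 h after Beta-Ac and 145 to 254 CPM in controls. Its call was lost without clinical drug 4 h replicate 2, without Beta-Ac 6 h replicate 3 and with only those groups fitted. Between 4 h and 5 days after the clinical drug 10 of 50 differed (20%, beside the 10.4% of all genes), with THBS1, ITGB6, ENG, CCN2 and IGFBP3 higher and LRRC32, NRROS, JUNB, ID1 and SPHK1 lower at 4 h. Here the call for ITGB6 was lost without clinical drug 4 h replicate 2 or 3 or clinical drug 5 days replicate 3. That for ID1 was lost without clinical drug 4 h replicate 2 or clinical drug 5 days replicate 1. At 5 days 0 of 50 were called by edgeR or DESeq2 for either drug against control, with 1 gene each at an unadjusted p under 0.05 (JUNB after the clinical drug and FBN2 after Beta-Ac). Over all genes edgeR called 0% after the clinical drug and 0.00567% after Beta-Ac. Of all 17644 genes 775 and 1133 were under 0.05. Between the drugs at 5 days 0 of 50 were called by either tool, with 2 at an unadjusted p under 0.05. Over all genes edgeR called 0%, and 556 were under 0.05. Between 6 h and 5 days after Beta-Ac edgeR called 0 of 50, with 5 at an unadjusted p under 0.05, and DESeq2 called 1. Over all genes edgeR called 0.261%, and 1396 were under 0.05.

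Markers of lung cell types moved with some of these comparisons. The summed level of 6 alveolar type 2 genes was 12000 to 18216 CPM at 4 h after the clinical drug and 7538 to 11454 CPM in controls, and LAMP3, SFTPC and ABCA3 were called higher. The summed level of 4 endothelial genes was 1721 to 2392 CPM against 2426 to 2599 CPM in controls, and KDR was called lower. The endothelial sum also lay below every control after Beta-Ac, at 2256 to 2327 CPM at 6 h and 1972 to 2126 CPM at 5 days, and the type 2 sum lay above every control at 5 days after Beta-Ac, at 11886 to 13921 CPM, with 0 genes of either list called there. That 5-day group is the one in which LTBP1 lay below every control. Markers of immune cells moved at 4 h after the clinical drug as well. CD163, of 4 macrophage genes tested, was called higher, and of 3 T cell genes CD3E and CCR7 were called lower and IL7R higher. Of 5 alveolar type 1 genes HOPX was called higher and RTKN2 lower. The sum of 5 airway genes was above every control at 6 h after Beta-Ac, at 217 to 481 CPM against 64.2 to 182 CPM. The sum of 5 fibroblast genes, at 6001 to 7157 CPM, overlapped the controls at 5345 to 7957 CPM, and 0 of 5 were called. The part of these cell types in the levels of SMAD3, TGFB3, LTBP1, THBS1, ENG, NRROS and LRRC32 was not tested.

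In the hippocampus none of the 8 members was called. Against CTL this was 0 of 8 in BAC, where 0% of all genes passed, and 0 of 8 in CEL, where 7.86% of all genes passed. Between CEL and BAC it was again 0 of 8, beside 0% of all genes. By an unadjusted p under 0.05, SMAD3 and TGFBR1 were lower in BAC than in CTL and SMAD3 was lower in CEL than in CTL, and none of the 8 was under 0.05 between CEL and BAC. Over all 17390 genes tested, 2133 were under 0.05 in BAC against CTL, 5322 in CEL against CTL and 2346 in CEL against BAC. DESeq2 called 0 members in all 3 comparisons, but gave TGFBR2 no adjusted p.

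SMAD3 measured 9.36, 5.48, 8.06, 5.71 and 10.6 CPM in the 5 CTL hippocampi. It measured 6.93, 3.63, 3.89, 4.33 and 6.61 CPM in BAC and 6.39, 4.99, 4.29, 6.65 and 4.80 CPM in CEL. In both treated groups 3 controls lay above every treated library and the other 2 among them. The log2 fold change was -0.62 in BAC (95% interval -1.12 to -0.12, Benjamini-Hochberg adjusted p = 0.32) and -0.53 in CEL (95% interval -1.03 to -0.03, Benjamini-Hochberg adjusted p = 0.141). Libraries were sequenced in 4 runs, and only the runs of CTL replicates 3 and 5 hold all groups, with 1 CTL library each. In the run of CTL replicate 3 SMAD3 was 8.06 CPM in CTL against 3.63 to 6.93 in BAC and 4.29 to 6.39 in CEL, and in the run of CTL replicate 5 it was 10.6 CPM in CTL against 4.33 to 6.61 and 4.80 to 6.65. With run as a term the log2 fold changes of SMAD3 were -0.85 and -0.75 and remained uncalled (edgeR, Benjamini-Hochberg adjusted p = 0.29 and 0.135). Over all alternatives they ranged from -0.85 to -0.39 in BAC and from -0.75 to -0.40 in CEL, and none was called.

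TGFBR2 and TGFBR3 were dominated by single libraries. TGFBR2 measured 8.76, 8.21, 8.06 and 5.55 CPM in 4 CTL libraries and 45.7 CPM in CTL replicate 5. In BAC it was 8.23, 14, 7.04, 5.80 and 7.26 CPM, and in CEL 8.65, 8.59, 6.88, 5.86 and 9.09 CPM. Only CTL replicate 5, and to a lesser extent BAC replicate 2, stood apart from an otherwise even level. The log2 fold changes of -0.85 in BAC (Benjamini-Hochberg adjusted p = 0.488) and -0.97 in CEL (Benjamini-Hochberg adjusted p = 0.184) became 0.15 and 0.03 without CTL replicate 5. With run as a term TGFBR2 was called in CEL (log2 fold change -1.73, Benjamini-Hochberg adjusted p = 0.0727), where CTL replicate 5 is the only control of its run.

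TGFBR3 measured 12.2, 14.2, 17.3, 17.3 and 62.6 CPM in CTL, 23.4, 59.2, 25.1, 9.43 and 26.6 CPM in BAC and 27.0, 16.4, 22.9, 15.3 and 13.2 CPM in CEL. CTL replicate 5 and BAC replicate 2 were again the highest, and the remaining libraries overlapped. Its log2 fold change in BAC was 0.22 with all libraries, 0.91 without CTL replicate 5 (Benjamini-Hochberg adjusted p = 0.312), -0.23 without BAC replicate 2 and -0.68 with run as a term. In CEL it was -0.38 with all libraries, 0.31 without CTL replicate 5 and -1.26 with run as a term (Benjamini-Hochberg adjusted p = 0.616, 0.607 and 0.182). The direction of TGFBR3 thus turned with single libraries in both comparisons. Without both of those libraries it was 0.47 in BAC and 0.31 in CEL, with adjusted p of 0.522 and 0.463. CTL replicate 5 also stood apart in markers of tissue beside the hippocampus. The summed level of 3 choroid plexus genes was 929 CPM in CTL replicate 5 and 7.21 to 20.2 CPM in every other library. The summed level of 5 meningeal and vascular fibroblast genes was 995 CPM in CTL replicate 5 and 53.7 to 543 CPM elsewhere. BAC replicate 2, at 543 CPM, lay close to BAC replicate 5 at 513 CPM, whose TGFBR2 (7.26 CPM) and TGFBR3 (26.6 CPM) did not stand apart. In 3 striatal genes both libraries were high, with sums of 172 CPM in CTL replicate 5 and 146 CPM in BAC replicate 2 against 41.5 to 97.2 CPM in the other libraries. The part of these tissues in the receptor levels was not tested.

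**Figure D4:**
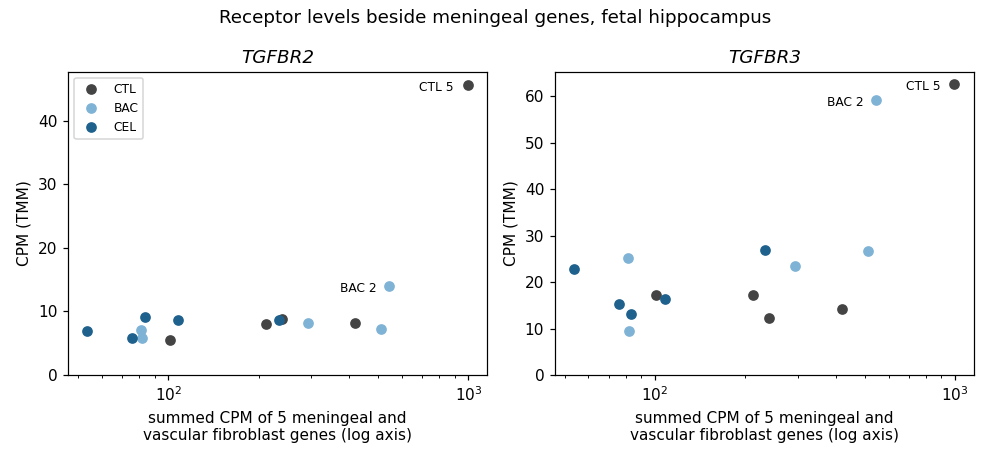
Levels of TGFBR2 and TGFBR3 in CPM (vertical axes) in the 15 hippocampus libraries against the summed CPM of 5 meningeal and vascular fibroblast genes (horizontal axes, log scale), colored by group. CTL replicate 5 has the highest marker sum, 995 CPM, and the highest level of both receptors, at 45.7 and 62.6 CPM.

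The ligands and the other members did not separate the hippocampus groups. TGFB1 measured 10.5, 10.3, 9.82, 8.09 and 14.5 CPM in CTL, 7.94, 5.56, 5.83, 15.0 and 10.6 in BAC and 7.76, 7.92, 7.01, 7.74 and 14.5 in CEL, with overlap throughout. TGFB2 was 41.7, 61.5, 71.5, 72.8 and 53.4 CPM in CTL, 93.0, 75.1, 87.9, 34.6 and 76.9 in BAC and 82.7, 71.6, 93.2, 58.1 and 43.5 in CEL. Its log2 fold changes of 0.29 and 0.21 had 95% intervals of -0.24 to 0.81 and -0.31 to 0.74. TGFB3, called in lung, was 23.9, 28.3, 24.6, 24.3 and 49.2 CPM in CTL, 31.9, 30.7, 27.2, 23.5 and 31.9 in BAC and 32.0, 28.8, 37.9, 24.4 and 19.5 in CEL. Its log2 fold changes were -0.05 (95% interval -0.49 to 0.39) and -0.07 (95% interval -0.52 to 0.37), and turned to 0.20 and 0.18 without CTL replicate 5, the library at 49.2 CPM.

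LTBP1 was 49.8, 53.1, 61.8, 49.1 and 90.2 CPM in CTL and 43.8, 40.1, 50.9, 51.3 and 45.8 CPM in CEL. BAC was the most uneven group, at 74.9, 21.3, 60.4, 50.6 and 82.5 CPM, with its lowest value in BAC replicate 2. The log2 fold change of LTBP1 was -0.07 in BAC (Benjamini-Hochberg adjusted p = 0.941) and -0.39 in CEL (Benjamini-Hochberg adjusted p = 0.34). Without CTL replicate 5 these were 0.12 and -0.21, and without BAC replicate 2 the BAC value was 0.14. TGFBR1 was 11.1, 11.7, 11.8, 9.48 and 15.2 CPM in CTL, 12.8, 7.99, 8.10, 7.34 and 9.02 in BAC and 12.7, 10.4, 10.7, 8.75 and 11.4 in CEL. In BAC 4 of 5 libraries lay below every CTL library, and the log2 fold change was -0.39 (95% interval -0.75 to -0.03, Benjamini-Hochberg adjusted p = 0.372). Without CTL replicate 5 it was -0.28.

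**Figure D5:**
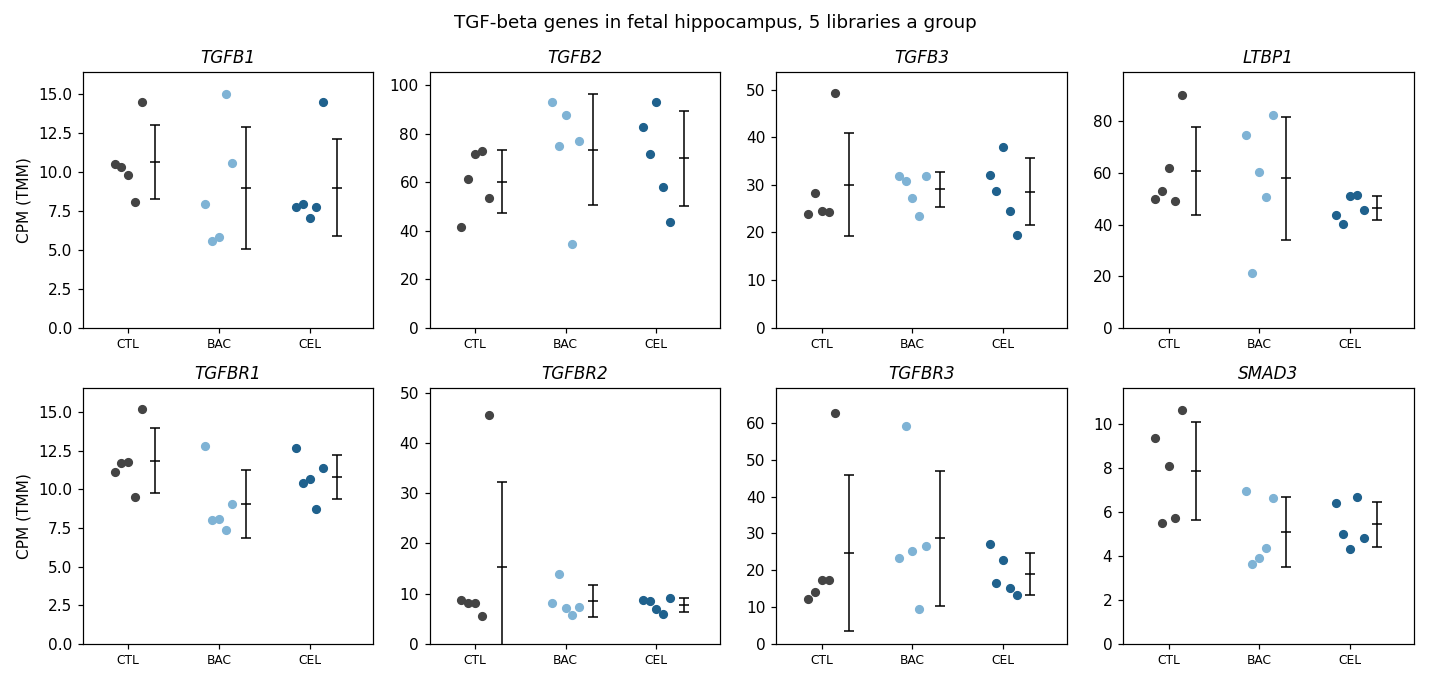
Levels of the 8 measured TGF-beta genes in fetal hippocampus in CPM after TMM normalization (vertical axes, starting at 0), by group (horizontal axes, n = 5 libraries each). Points are single libraries and black bars give mean and SD. The points of the groups overlap for every gene, and the isolated high points of TGFBR2 (45.7 CPM) and TGFBR3 (62.6 CPM) in CTL are replicate 5.

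Of the other pathway genes 50 were tested in hippocampus, and in CEL against CTL 1 was higher and 9 lower (20% called, beside the 7.86% of all genes), with a median log2 fold change of -0.23. TGIF1, a nuclear corepressor of SMADs, was at 18.3 to 22.8 CPM in CEL and 8.76 to 18.7 CPM in CTL (log2 fold change 0.72, SE 0.21, Benjamini-Hochberg adjusted p = 0.0383). SMURF1, a ubiquitin ligase that targets receptors and SMADs, was at 15.4 to 18.8 CPM in CEL and 24.1 to 31.6 CPM in CTL, without overlap (log2 fold change -0.63, SE 0.16, Benjamini-Hochberg adjusted p = 0.0243). The latent binding proteins LTBP4 (-0.71, SE 0.20) and LTBP3 (-0.86, SE 0.29) were lower. So were the matrix binders DCN (-1.17, SE 0.37) and FBN1 and the targets MMP2 (-1.08, SE 0.38), COL3A1 (-1.89, SE 0.72), ADAM12 (-0.69, SE 0.26) and COL1A1. FBN1 and COL1A1, given without values, were not followed gene by gene over the left-out libraries. Several of the calls for the remaining genes were lost when any 1 of several libraries was left out. That of LTBP3 was lost when CTL replicate 5 or CEL replicate 1, 2 or 3 was left out, and that of MMP2 without CTL replicate 5 or any 1 CEL library, with log2 fold changes over all alternatives of -1.08 to -0.44 for LTBP3 and -1.61 to -0.34 for MMP2. The call for COL3A1 (-2.57 to -1.05) was lost without CTL replicate 1, 2 or 5 or CEL replicate 2, 3, 4 or 5, that for ADAM12 (-1.11 to -0.34) without CTL replicate 1, 3 or 5 or any 1 CEL library, and that for DCN (-1.42 to -0.81) without CEL replicate 3.

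Of these 10 genes, 3 (DCN, COL1A1 and COL3A1) also belong to the list of meningeal and vascular fibroblast markers. Of that list 4 of 5 were called lower in CEL, as were 2 of 3 choroid plexus markers, CLIC6 and FOLR1. Over all genes tested 7.86% were called in this comparison. The choroid plexus sum was 929 CPM in CTL replicate 5 alone. It was 7.21 to 11.7 CPM in the remaining CTL libraries and 11.5 to 20.2 CPM in CEL, which was thus not lower outside that library. Higher in CEL were NEUROD1 of 3 granule neuron genes, AQP4 of 6 astrocyte and radial glia genes and P2RY12 of 3 microglia genes, and the granule neuron sum, at 245 to 316 CPM, lay above every CTL library at 124 to 239 CPM. The sum of 4 thalamic genes lay above every CTL library in both treated groups, at 120 to 156 CPM against 95.7 to 119 CPM. The part of these cell types and tissues in the differences was not tested. Without CTL replicate 5 and BAC replicate 2 the count in CEL was 4 in place of 10, and the count over all genes is not set beside it. The calls for SMURF1, LTBP4, TGIF1 and DCN held without those libraries and were lost with run as a term. They make up that count of 4, so the calls for LTBP3, MMP2, COL3A1, ADAM12, FBN1 and COL1A1 were lost without those libraries. None of the 10 calls thus held in both settings. SMURF1 kept a log2 fold change of -0.69 to -0.56 over all alternatives, and its call was also lost without CTL replicate 2. In BAC against CTL edgeR called 0 of 50, with 5 at an unadjusted p under 0.05, and DESeq2 called 1. Over all genes edgeR called 0% there, and 2133 of 17390 were under 0.05. In CEL against BAC both tools called 0 of 50, with 8 at an unadjusted p under 0.05. Over all genes edgeR again called 0%, and 2346 of 17390 were under 0.05.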

How the data were processed

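RNA from whole lung and hippocampus was sequenced in 15 libraries each. The deposited values are counts of reads per Ensembl gene that the authors made without normalization. Per the submitters' processing notes, lung used Bowtie 1.2.1.1 and featureCounts 1.5.1, and hippocampus (poly(A) selected) Bowtie2 and featureCounts. The paper's methods name Bowtie 2 and build MMUL1.0. The tables share 20572 gene identifiers (30246 in lung, 32386 in hippocampus), and 52.1% and 54.4% of them had a symbol. All sample columns were mapped by their names.

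Genes reaching 7 reads in 3 or more lung libraries, or in 5 or more hippocampus libraries, were fitted per tissue with edgeR 4.0.16 (TMM, quasi-likelihood F-test) in R 4.3.3, and the procedure was tested on simulated counts. Levels in CPM used TMM library sizes, with a prior count of 2 on the log2 scale for likeness between genes. Storey's method (lung) or Benjamini-Hochberg (hippocampus) adjusted p over all genes tested. No 2 libraries of a group were duplicates, since all differed beyond counting noise. P-values measure the spread between fetuses. In hippocampus, where the main fit held group only, this spread between libraries also holds differences between sequencing runs. Averaged over the genes tested, that spread exceeded counting noise, with a chi-square per gene of at least 13.7 between libraries of a group. For single members this was not tested, and counting error can be part of their spread.

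The 9 genes, the 5 lists of other pathway genes and the marker lists were chosen with earlier results of these data known, and their counts are descriptions. A gene of the pathway lists is not reported here and was left out of all counts over the lists. Named beside the members are all called pathway genes, with values for at most 8 in a comparison, and the 3 genes closest in level to each called member. Alternatives were RLE normalization, filterByExpr, no filter, DESeq2 1.42.0, the other adjustment, no fold threshold, only the groups compared, each library left out, and for hippocampus the sequencing run and the 3 fetuses a group with a lung library. Leaving out CTL replicate 5 and BAC replicate 2 together was chosen after seeing the data. No genome sequence was used.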

Additional observations from a re-analysis of the deposited data

Results flagged for a closer look

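In hippocampus, 4 of 24 groups of 5 libraries had a library far from the others by Dixon's test, which chance gives in about 1 of 20 groups. CTL replicate 5 was the highest for TGFBR2 (45.7 CPM, next 8.76), TGFBR3 (62.6 CPM, next 17.3) and TGFB3 (49.2 CPM, next 28.3), and this library also held the highest sums of choroid plexus and meningeal markers. CEL replicate 5 was the highest for TGFB1 (14.5 CPM, next 7.92).

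Effects of the clinical drug differed between 4 h and 5 days by the direct edgeR test. For the members the log2 differences were -1.02 for SMAD3 and -0.64 for TGFB3. For other pathway genes they were 1.73 for IGFBP3, 1.31 for THBS1, 0.79 for ENG and 0.74 for ITGB6, and -1.22 for SPHK1, -1.09 for LRRC32, -0.88 for NRROS and -0.72 for ID1. Of these, the calls for TGFB3, ITGB6 and ID1 were lost when some single libraries were left out. Between the early groups (clinical drug minus Beta-Ac) the log2 differences were -0.77 for SMAD3, 1.30 for IGFBP3, -1.23 for SPHK1, -1.14 for LRRC32, -0.85 for ID1 and -0.74 for NRROS. Dose, drug and time differ together in the latter comparison and cannot be told apart. The sexes of the fetuses also differ there by the paper's table of animals.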

How the results depend on the processing

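SMAD3 kept its direction and its call in lung under all alternatives run for its 3 calls, and 0 called member values reversed. Over all alternatives members had 65 values for called results, of which 3 were lost (all TGFB3), and 1271 for uncalled results, of which 2 were gained (both TGFBR2 in CEL against CTL with run as a term, -1.73, or in the runs with all groups alone, -1.70, so that 1 member was called there) and 99 changed sign. Group means of CPM moved by at most 1.32% under RLE.

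With each library left out in turn, the members called ranged from 1 to 2 for 4 h after the clinical drug against control and against 5 days. Other pathway genes called ranged from 0 to 1 for Beta-Ac at 6 h against control and against 5 days, from 5 to 7 for 4 h after the clinical drug against 6 h after Beta-Ac, from 7 to 11 for 4 h against 5 days and from 3 (without CEL replicate 3) to 14 (without CTL replicate 4) for CEL against CTL. By DESeq2 the other pathway genes called were 1 for Beta-Ac at 6 h against 5 days and 1 for BAC against CTL (main count 0 for both). With only those groups fitted, Beta-Ac at 6 h against control had 0 (main count 1). Without a fold threshold the counts were 17 for 4 h against 5 days (main 10), 11 for 4 h against 6 h after Beta-Ac (main 5) and 16 for CEL against CTL (main 10). CEL against CTL had 6 without a filter, 4 in the fetuses with a lung library and 4 without CTL replicate 5 and BAC replicate 2. The counts over all genes under these settings are not set beside these counts. From the list counts alone, a change in the lists can therefore not be told apart from a change over all genes. The causes were not tested. No paired analysis was possible because replicate numbers follow accession order and mark no shared fetus, batch or day between groups.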
